A study of Mus musculus with 17 samples.

Results

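Transcripts of 10 genes of fibroblasts and meninges were followed through single-nucleus counts of the mouse posterior brain. The 10 genes, of 26131 in the count matrix, were taken as a list: Slc6a13, Slc47a1, Ranbp3l, Bnc2, Dcn, Col1a1, Col1a2, Adamtsl1, Igfbp5 and Cdh11. All were found in the matrix. Each was read as unique molecular identifiers (UMIs, counted RNA molecules) summed per animal over the nuclei labelled Vascular cells and over the nuclei of each other label.

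The animals were 17 female mice aged 2.3 months, labelled hTfR KI HOM, that is with a knock-in of the human transferrin receptor gene (TfR) on both alleles. Every group, saline included, carried it. Of these, 4 received saline, 4 received Malat1 ASO at a labelled 2 mg per kg, 6 received anti-TfR:Malat1 at a labelled 50 mg per kg and 3 received OTV:Malat1 at the same labelled dose, each as 4 intravenous doses. Malat1 ASO is an antisense oligonucleotide against the nuclear noncoding RNA Malat1, and the other agents join such an oligonucleotide to an antibody or a transport vehicle that binds TfR. The labelled treatment lasted 24 days. Each library, with its own sample number, is counted as 1 animal. The labelled doses of the free and the joined oligonucleotide differ. The labels used here do not say whether a dose counts the oligonucleotide alone or the whole conjugate. Whether these groups are matched in oligonucleotide dose therefore cannot be judged. The saline animals also carry a labelled 50 mg per kg, which leaves the dose labels in some doubt.

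Fibroblasts of the brain lie in the meninges, the layered membranes over its surface, and in the spaces around larger vessels. They secrete collagens and proteoglycans that build these layers, and some of their layers also carry transporters that move solutes between cerebrospinal fluid and blood. They are rare beside neurons and glia, and atlases often place them in one class with endothelial cells and with the mural cells that wrap vessels.

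The matrix held 284074 nuclei, 13841 to 18365 per animal, with 55393588 to 79866411 UMIs per animal. Only 1226 nuclei were labelled Vascular cells, 42 to 119 per animal, with 43368 to 171058 UMIs per animal and a median of 1100 UMIs per nucleus. That depth limits every value given below for them, and 1 UMI in the smallest of these sums is a large step. Of all nuclei, 7.16% carried a cell barcode also present in another library, and so did 6.69% of Vascular nuclei, with 1 barcode shared by Vascular nuclei of 2 libraries. Malat1, the targeted RNA, made up 10.2% ± 1.48 (SD, n = 4) of the UMIs of Vascular nuclei in saline, 8.82% ± 1.49 (n = 4) in Malat1 ASO, 8.14% ± 1.40 (n = 6) in anti-TfR:Malat1 and 7.65% ± 0.768 (n = 3) in OTV:Malat1. Over all nuclei it made up 6.85% ± 1.56, 6.55% ± 1.35, 5.92% ± 0.996 and 4.00% ± 0.572 in the same order. In edgeR's quasi-likelihood test Malat1 passed the adjusted threshold of 0.05 in no comparison in either set; its log2 change in OTV:Malat1 against saline over all nuclei was -0.84 (unadjusted p = 0.000457, adjusted p = 1).

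Sequence just upstream of the annotated start is shown for 3 members that fall on different sides of the main pattern described below: Slc6a13 and Ranbp3l, found together in nuclei, and Igfbp5, found mostly in others. Each stretch is 180 bases, from 250 to 71 bases before the RefSeq start, on build GRCm38.p6 and outside annotated exons. RefSeq promoter entries matched 5 of the 10 members. Slc6a13 is shown at chr6:121300038-121300217 on the + strand (the first of 3 entries), Ranbp3l at chr15:8967699-8967878 on the + strand, and Igfbp5 at chr1:72874936-72875115 on the - strand. Capitals mark the one motif found, a GC box (GGGCGG).
Slc6a13: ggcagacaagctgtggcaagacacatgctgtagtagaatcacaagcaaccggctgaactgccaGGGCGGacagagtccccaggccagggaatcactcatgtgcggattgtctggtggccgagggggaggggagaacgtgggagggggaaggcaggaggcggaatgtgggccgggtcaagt
Ranbp3l: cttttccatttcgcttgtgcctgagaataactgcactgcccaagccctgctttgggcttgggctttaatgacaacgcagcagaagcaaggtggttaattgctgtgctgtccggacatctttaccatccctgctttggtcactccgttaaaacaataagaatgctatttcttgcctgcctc
Igfbp5: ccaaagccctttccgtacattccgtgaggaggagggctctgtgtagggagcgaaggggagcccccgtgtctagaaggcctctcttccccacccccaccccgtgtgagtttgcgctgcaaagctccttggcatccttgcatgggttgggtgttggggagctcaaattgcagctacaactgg

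The motifs searched on both strands were the TATA box (TATAAA), the CCAAT box (CCAAT), the GC box (GGGCGG), a forkhead motif (TGTTTAC) and an AP-1 motif (TGANTCA), none of which contains another. The GC box of Slc6a13 lay 187 to 182 bases before the start, and no motif was found in the stretches of Ranbp3l and Igfbp5. Of 32817 RefSeq windows of the same length, 21.1% held a GC box, 25.0% a CCAAT box, 8.36% a TATA box, 4.93% the AP-1 motif and 2.37% the forkhead motif. GC content was 61.7% for this Slc6a13 window, 47.8% for Ranbp3l and 59.4% for Igfbp5, against a median of 51.1% over those windows. RefSeq lists 2 more starts for Slc6a13, whose windows had 47.8% and 47.2% GC and no GC box; 1 of them held a CCAAT box.

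Levels by label came first, to see whether the 10 genes mark the Vascular label. They were expressed as UMIs per 1000000 UMIs of that label (CPM), a scale on which genes are not compared with each other because no correction for length was made. For 8 of the 10 genes the mean over animals was highest under the Vascular label. The number was the same with called doublets left out, though Glia then had no mean and was not ranked. The share of nuclei with a UMI was also highest there for 8 genes after thinning to 500 or to 1000 UMIs. At 1000 UMIs shallower nuclei were left out, among them 498 of 1226 Vascular nuclei. With any 1 animal left out, the highest label of each of the 10 genes stayed the same. The labels were made from the same counts, so these levels are a description and carry no test.

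Of the 10 genes, the transporter Slc6a13 had the largest share of its UMIs in Vascular nuclei. This carrier of GABA and taurine averaged 458 ± 126 CPM (SD, n = 17) in Vascular nuclei, from 218 to 682 CPM, and no other label averaged above 0.236 CPM. It had no UMI in perivascular macrophages or in the label Glia, counts that allow up to 3.98 and 6.24 CPM. Of all its UMIs, 75.6% lay in Vascular nuclei, and 32.1% of these nuclei had a UMI of it, or 19.0% at 500 UMIs per nucleus. Slc47a1, an efflux transporter of organic cations, averaged 296 ± 185 CPM in Vascular nuclei, and 30.8% of its UMIs were Vascular. Its mean of 49 CPM in Glia, a label of 225 nuclei, came from 7 UMIs of anti-TfR:Malat1 replicate 5, and the other 16 animals had none there.

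Dcn, Col1a1 and Col1a2, which encode proteins of the extracellular matrix, were also highest under the Vascular label. Dcn encodes decorin, a proteoglycan that binds collagen fibrils, and averaged 265 ± 96.7 CPM in Vascular nuclei and 11.4 CPM in perivascular macrophages, the next label. Col1a1 and Col1a2 encode the chains of type I collagen. Col1a2 averaged 156 ± 35.4 CPM in Vascular nuclei, with Glia next at 14.3 CPM, or 4.05 CPM without saline replicate 2, when astrocytes (6.6 CPM) are next. Col1a1 averaged 24.1 ± 16.1 CPM from only 42 UMIs in all Vascular nuclei, with astrocytes next at 6.85 CPM. Only 1.27% of Vascular nuclei at 500 UMIs had a UMI of Col1a1, and its differences between groups were not tested there, since it did not pass the filter on low counts.

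The regulators and the secreted binding protein were also present under a second label. Ranbp3l, a Ran-binding protein of nuclear transport, averaged 724 ± 243 CPM in Vascular nuclei and 90.8 CPM in astrocytes. Bnc2, a zinc finger protein, averaged 606 ± 344 CPM in Vascular nuclei, with a range of 21.1 to 1278 CPM over animals, and 147 CPM in Glia, or 59.7 CPM without anti-TfR:Malat1 replicate 5. Igfbp5, a secreted binder of insulin-like growth factors, averaged 232 ± 211 CPM in Vascular nuclei and 61.3 CPM in astrocytes. By its UMIs, 86.8% lay in neurons, where it averaged 12.3 CPM, and 2.96% in Vascular nuclei.

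For 2 of the 10 genes the Vascular label, taken as a whole, did not have the highest mean. Cdh11, a cadherin of mesenchymal cells, averaged 258 CPM in neurons against 233 ± 116 CPM in Vascular nuclei, means closer to each other than the spread between animals, and 0.152% of its UMIs were Vascular. Adamtsl1, a secreted glycoprotein related to the ADAMTS proteases, averaged 468 CPM in oligodendrocytes and 228 CPM in Glia, both above its 162 ± 99.3 CPM in Vascular nuclei. At 500 UMIs per nucleus 21.1% of oligodendrocytes and 3.66% of Vascular nuclei had a UMI of Adamtsl1. Neither gene marked the Vascular label by level.

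**Figure D1:**
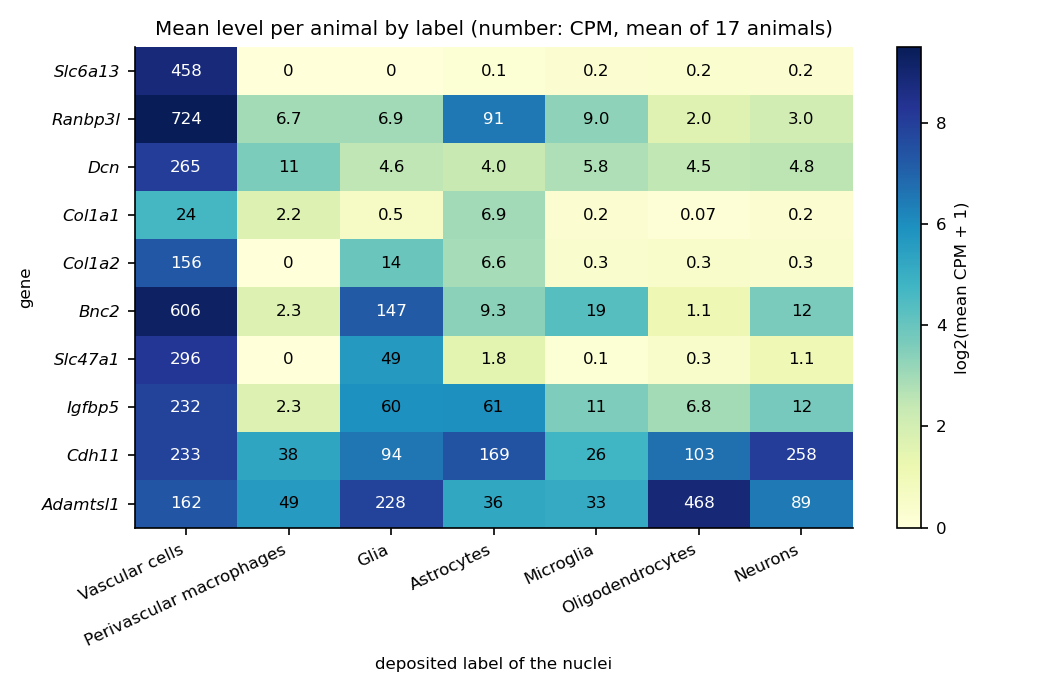
Mean level of each of the 10 genes (rows) under each deposited label (columns), as the mean over 17 animals in CPM, with colour on a log2(CPM + 1) scale. The Vascular column is the highest for 8 genes, and the exceptions are Cdh11 (258 CPM in neurons) and Adamtsl1 (468 CPM in oligodendrocytes).

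Within the Vascular label the 10 genes were read in nuclei split by other genes. Each of the 1226 nuclei was assigned to the list with the largest share of its UMIs among 30 other fibroblast genes, 12 endothelial genes and 12 mural genes, none of which is one of the 10. Fibroblast genes led in 695 nuclei, mural genes in 333 and endothelial genes in 186, and 12 nuclei were led by none. A nucleus led by fibroblast genes held UMIs of 2.45 of the 10 genes on average, and 44.6% held 3 or more. The means were 0.285 in nuclei led by mural genes and 0.134 in those led by endothelial genes.

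Pooled over animals, all 10 genes were highest in the fibroblast-led nuclei. Ranbp3l reached 1240 CPM there against 6.05 CPM in mural-led nuclei. Bnc2 reached 1051 CPM and Slc47a1 506 CPM, and neither had a UMI in mural-led nuclei, where a count of 0 allows up to 9.08 CPM. Slc6a13 had 742 CPM in fibroblast-led and 106 CPM in mural-led nuclei, Cdh11 358 and 130 CPM, and Adamtsl1 245 and 51.4 CPM. The lists and the 10 genes were read in the same nuclei, so this too is a description. Of the 30 other fibroblast genes, 4 are named by highest mean CPM in Vascular nuclei, a choice that makes no correction for length. They were Cped1 (1831 CPM), Slc6a20a (1248 CPM), Lama2 (1029 CPM) and Lama1 (745 CPM). Slc6a20a is an amino acid transporter, and the others encode a secreted protein and laminin chains.

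Within the fibroblast-led nuclei some of the 10 genes were often found in one nucleus and others seldom. Among the 360 nuclei with a UMI of Slc6a13, 58.1% had Ranbp3l and 39.4% had Dcn, while 7.2% had Bnc2 and 0.8% had Slc47a1. Among the 90 nuclei with Slc47a1, 96.7% had Bnc2, 70.0% Cdh11, 68.9% Igfbp5 and 57.8% Adamtsl1, while 10.0% had Dcn, 3.3% Slc6a13 and 1.1% Ranbp3l. Col1a2 was found in both sets, in 27.8% of the former and 50.0% of the latter. Nuclei with Slc47a1 were deeper, with a median of 1902 UMIs against 1161 in those without it, and the part of depth in the co-occurrence was not tested.

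**Figure D2:**
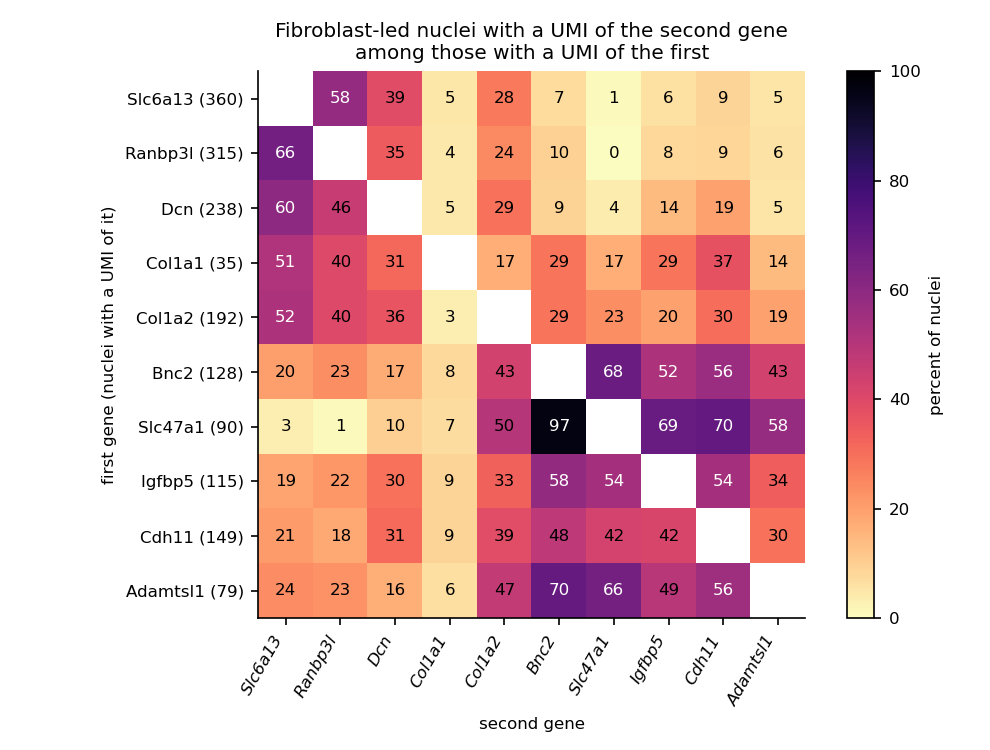
Percent of fibroblast-led nuclei with a UMI of the second gene (columns) among those with a UMI of the first (rows, number of nuclei in parentheses). Slc6a13, Ranbp3l and Dcn form one block of higher values, and Bnc2, Slc47a1, Igfbp5, Cdh11 and Adamtsl1 another, with 96.7% of Slc47a1 nuclei also holding Bnc2.

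The split ran beyond the Vascular label. Deposited cluster 14 held 7405 nuclei, among them 1203 labelled Vascular cells, 4793 labelled astrocytes and 1147 labelled neurons. In it, 282 nuclei had a UMI of Slc47a1 and none of Slc6a13, 402 had Slc6a13 and no Slc47a1, and 4 had both. Of the Slc6a13 nuclei, 383 (95.3%) were labelled Vascular cells. Of the Slc47a1 nuclei, 87 (30.8%) were labelled Vascular cells and 186 (66.0%) were labelled neurons. This grouping was made after the co-occurrence had been seen, so what follows is a description without a test.

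Slc47a1 nuclei are given under either label for the other 8 genes. Bnc2 reached 4811 CPM in those labelled Vascular cells and 3593 CPM in those labelled neurons, against 110 CPM in Slc6a13 nuclei and 35.8 CPM in the other nuclei of the cluster labelled neurons. Adamtsl1 reached 1131 and 962 CPM against 60.5 CPM in Slc6a13 nuclei, Igfbp5 1650 and 628 CPM against 56.0 CPM, and Cdh11 912 and 495 CPM against 124 CPM. Ranbp3l went the other way, with 1395 CPM in Slc6a13 nuclei and no UMI in the 282 Slc47a1 nuclei, which allows up to 5.66 CPM. Dcn was also higher in Slc6a13 nuclei, at 342 CPM against 40.4 CPM in the Slc47a1 nuclei labelled Vascular cells and 9.1 CPM in those labelled neurons.

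Of the 30 fibroblast genes outside the 10, 10 were higher in Slc47a1 nuclei and 20 in Slc6a13 nuclei, by any margin and with no test. Cped1 was close in both (1689 and 2089 CPM) and so was Lama2 (704 and 1012 CPM), whereas Lama1 had 3.77 CPM from 2 UMIs in Slc47a1 nuclei against 1386 CPM in Slc6a13 nuclei. Slc6a20a had no UMI in Slc47a1 nuclei and 1759 CPM in Slc6a13 nuclei. Picked after their values were seen, Mgp, a matrix inhibitor of calcification, stood at 560 CPM in Slc47a1 and 31.8 CPM in Slc6a13 nuclei, and Aldh1a2, an enzyme of retinoic acid synthesis, at no UMI and 287 CPM.

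Markers of neurons were read beside these nuclei because most of the Slc47a1 nuclei carried that label. The summed level of 7 neuron genes was 675 CPM in the Slc47a1 nuclei labelled Vascular cells, 3190 CPM in those labelled neurons, 3340 CPM in the Slc6a13 nuclei and 9459 CPM in the other nuclei of the cluster labelled neurons. The summed level of the 30 fibroblast genes was 6121, 3857, 10050 and 452 CPM in the same order. Lists of other cell types differed too: mural genes had 1168 CPM in Slc6a13 nuclei and 81.1 CPM in Slc47a1 nuclei. Astrocyte genes had 1812 and 457 CPM, and oligodendrocyte precursor genes 558 and 162 CPM. The precursor list was Vcan, Cspg4, Pdgfra, Tnr and Lhfpl3, and whether each is confined to precursors in these nuclei was not examined. Among the lists of other cell types only perivascular macrophage genes went the other way, at 3.03 and 3.77 CPM. Called doublets made up 21 of the 282 Slc47a1 nuclei and 40 of the 402 Slc6a13 nuclei. Counted by UMIs, 53.1% of all Slc47a1 RNA lay in nuclei of cluster 14 labelled neurons and 30.8% in those labelled Vascular cells, so its level under the Vascular label leaves out most of the gene's RNA.

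**Figure D3:**
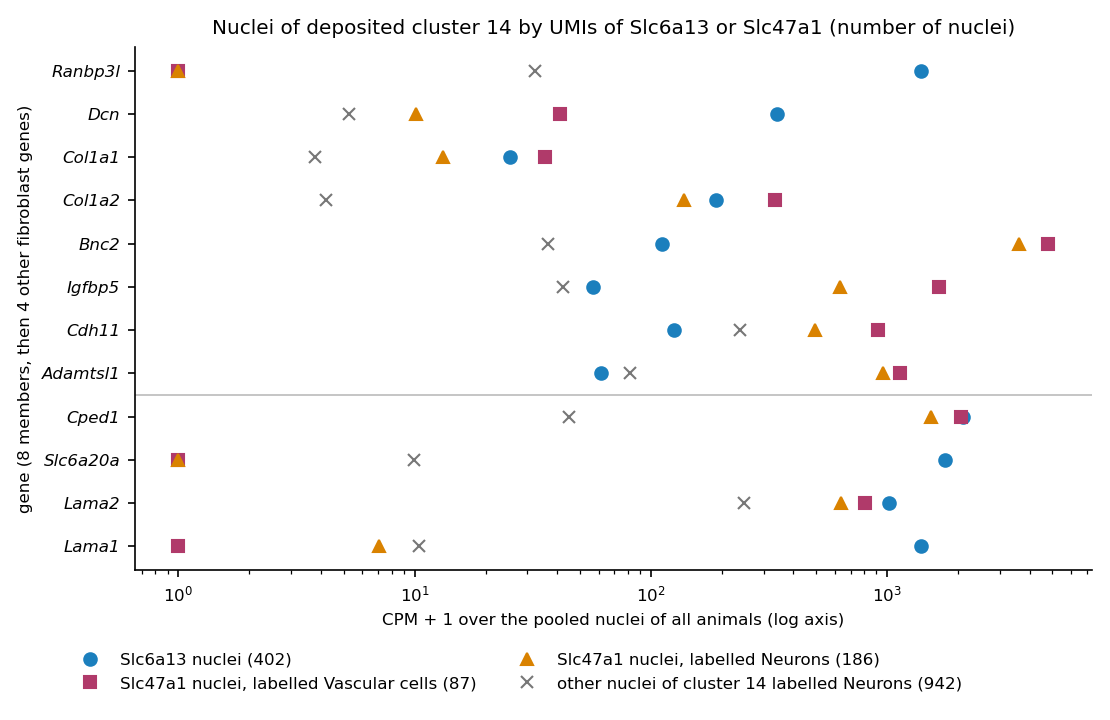
Pooled level of 8 of the 10 genes and of 4 other fibroblast genes (rows) in nuclei of deposited cluster 14, as CPM + 1 on a log axis, by the presence of Slc6a13 or Slc47a1 UMIs and by label. Squares and triangles (Slc47a1 nuclei under 2 labels) lie close together for Bnc2 and Adamtsl1 and apart from the circles (Slc6a13 nuclei), while Ranbp3l and Slc6a20a have no UMI in them.

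Genes with the profile most like the summed 10 were sought over 32 groups of nuclei made by label and cluster, among 15318 genes. Sptbn1, a spectrin of the membrane skeleton, was closest (Pearson r = 0.81 between log2(CPM + 1) values), followed by Bicc1, an RNA-binding protein (r = 0.78), Gm48742 (r = 0.77), Nxpe4 (r = 0.77) and Fermt2, an integrin adaptor (r = 0.76). The groups share libraries and differ in depth, so these values only describe the resemblance. In most groups under other labels Cdh11 and Adamtsl1 made up most of the sum. Cdh11 gave 599 of 692 CPM in neurons of cluster 7, and Adamtsl1 gave 513 of 611 CPM in oligodendrocytes of cluster 2. None of the genes named here was among the 30 other fibroblast genes. Sptbn1 stood at 1302 CPM in Vascular nuclei of cluster 14 and at most 570 CPM in another group, Bicc1 at 827 and 169 CPM, and Nxpe4 at 157 and 152 CPM. Gm48742 (145 CPM) and Fermt2 (293 CPM) were higher in a group under another label, at 313 and 379 CPM.

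The effect of treatment was examined first in Vascular nuclei, animal by animal. Slc6a13 stood at 625.5, 287.6, 392.9 and 356.6 CPM in the 4 saline animals, at 682.3, 484.9, 594.5 and 218.4 CPM in Malat1 ASO, between 333.6 and 576.5 CPM (median 457.9) in anti-TfR:Malat1, and at 396.4, 570.5 and 403.4 CPM in OTV:Malat1. All 4 groups overlapped. Ranbp3l stood at 830.1, 535.6, 485.9 and 430.1 CPM in saline, 1126, 514.3, 760.6 and 336.1 CPM in Malat1 ASO, 507.9 to 1102 CPM (median 766.5) in anti-TfR:Malat1 and 700.6, 876.8 and 859.3 CPM in OTV:Malat1. Its OTV:Malat1 animals sat in the upper part of the saline range or just above it, and the groups again overlapped. OTV:Malat1 overlapped saline only through saline replicate 1, from a deposited batch without an OTV:Malat1 animal. The other saline animals lay below every OTV:Malat1 value, and the part of the batch was not tested.

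The genes found with Slc47a1 varied more between animals. Slc47a1 stood at 280.6, 327.3, 351.5 and 230.8 CPM in saline and at 452.1, 734.7, 489.6 and 352.9 CPM in Malat1 ASO. These did not overlap, but the lowest Malat1 ASO value, from 21 UMIs, was above the highest saline value by less than 1 UMI is worth. The share of all genes separated in this way was not counted. The animals of these values were Malat1 ASO replicate 4 and saline replicate 3. Slc47a1 nuclei labelled Vascular cells, as defined above, numbered 3 in the former and 6 in the latter. A nucleus can hold several UMIs of the gene, so 1 nucleus more or less can move such a value by more than 1 UMI does. In fibroblast-led nuclei the groups overlapped (up to 603.6 CPM in saline, from 597.6 CPM in Malat1 ASO). In Vascular nuclei Slc47a1 ranged from 56.44 to 449.1 CPM (median 239.1) in anti-TfR:Malat1. It stood at 110.6, 0 and 263.1 CPM in OTV:Malat1. The count of 0 in replicate 2 allows up to 31.7 CPM if UMIs are independent. In fibroblast-led nuclei the 495 UMIs of Slc47a1 lay in 90 nuclei, so that limit is too low. Bnc2 stood at 590.4, 932.3, 630.7 and 493.0 CPM in saline, 1003, 1278, 1075 and 688.9 CPM in Malat1 ASO, 115.3 to 788.3 CPM (median 424.2) in anti-TfR:Malat1 and 442.5, 21.13 and 631.4 CPM in OTV:Malat1. For both genes Malat1 ASO replicate 2 was the highest of the 17 animals and OTV:Malat1 replicate 2 the lowest.

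Igfbp5 and Adamtsl1, often found in nuclei with Slc47a1, also spread widely. Igfbp5 stood at 163.7, 128.9, 444.6 and 230.8 CPM in saline, 830.3, 543.7, 306 and 252.1 CPM in Malat1 ASO, 0 to 289.4 CPM (median 125.7) in anti-TfR:Malat1 and 92.19, 21.13 and 140.3 CPM in OTV:Malat1. The OTV:Malat1 values overlapped saline only through the lowest saline animal. Adamtsl1 stood at 93.54, 337.2, 289.5 and 115.4 CPM in saline, 328.8, 249.8, 166.1 and 151.2 CPM in Malat1 ASO, 56.44 to 256.6 CPM (median 127.2) in anti-TfR:Malat1 and 92.19, 10.56 and 105.2 CPM in OTV:Malat1. Its lowest saline animal, replicate 1, lay among the OTV:Malat1 values but came from a deposited batch without an OTV:Malat1 animal. OTV:Malat1 replicate 2 was again the lowest of all.

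The matrix genes and Cdh11 are given by their ranges. Dcn ranged from 125.9 to 434.2 CPM in saline and from 110.6 to 371.5 CPM over the treated animals. Col1a2 ranged from 136.4 to 196.4 CPM in saline and from 110.6 to 140.3 CPM in OTV:Malat1, and Cdh11 from 168.6 to 325.2 CPM and from 42.26 to 175.4 CPM. Col1a1 was at 0 in 2 of the 17 animals. Every one of these ranges overlapped its saline range. For Col1a2 and Cdh11 OTV:Malat1 did so only through replicate 3, from 8 and 10 UMIs, and by less than 1 UMI is worth.

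**Figure D4:**
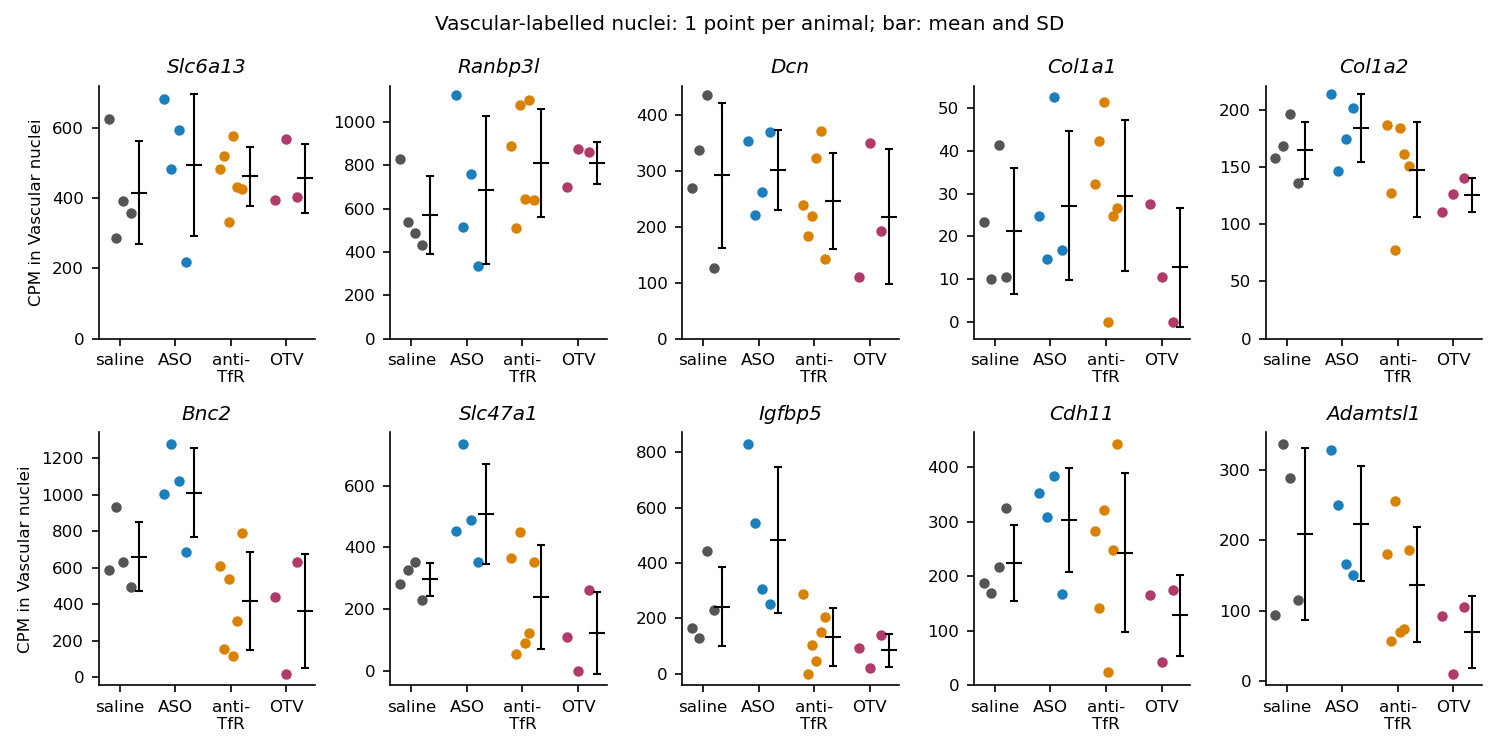
Level of each gene in Vascular nuclei (vertical axis, CPM), 1 point per animal in 4 groups (from the left saline with 4 animals, Malat1 ASO with 4, anti-TfR:Malat1 with 6 and OTV:Malat1 with 3), with the group mean and SD as a bar. Slc6a13 overlaps in all groups. Slc47a1 in Malat1 ASO (352.9 to 734.7 CPM) lies above saline (230.8 to 351.5 CPM) by less than 1 UMI is worth, and it reaches 0 in OTV:Malat1.

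None of the 10 genes passed the test in Vascular nuclei. UMIs were summed per animal and fitted by edgeR's quasi-likelihood method with Benjamini-Hochberg adjustment over all 3312 genes that passed the filter on low counts, among them 9 of the 10 (Col1a1 was filtered out). The number of the 10 called was 0 in each of the 4 comparisons, beside 0% of all genes in each, and DESeq2 also called 0. At an unadjusted p under 0.05 the count was 0 in Malat1 ASO against saline (4.29% of all genes), 0 in anti-TfR:Malat1 against saline (2.39%), 3 in OTV:Malat1 against saline (5.16%) and 1 between OTV:Malat1 and anti-TfR:Malat1 (4.32%). The comparisons against saline share the same 4 saline animals, and the 3 genes of the third comparison, Adamtsl1, Igfbp5 and Slc47a1, were often found in the same nuclei.

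Sizes are given for the 2 genes of lowest p in each comparison. In Malat1 ASO against saline the log2 change was 1.02 (SE 0.50, unadjusted p = 0.0512) for Igfbp5 and 0.74 (SE 0.48) for Slc47a1. In anti-TfR:Malat1 against saline it was 0.46 (SE 0.28) for Ranbp3l and -0.70 (SE 0.50) for Igfbp5. In OTV:Malat1 against saline it was -1.61 (SE 0.59, unadjusted p = 0.0124, adjusted p = 0.864) for Adamtsl1 and -1.59 (SE 0.69, unadjusted p = 0.0307, adjusted p = 0.912) for Igfbp5. Between OTV:Malat1 and the antibody conjugate it was -1.03 (SE 0.48) for Cdh11 and -1.19 (SE 0.61) for Slc47a1.

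The median log2 change of the 9 genes tested was 0.26, -0.25, -0.84 and -0.33 in these comparisons in order, beside 0.00, 0.00, -0.01 and -0.01 over all genes. Marker lists of other cell types were summed in the same nuclei, and 2 of them did not overlap between OTV:Malat1 and saline. The summed level of 6 oligodendrocyte genes was 1456 to 2102 CPM in OTV:Malat1 against 858 to 1309 CPM in saline. That of 5 oligodendrocyte precursor genes was 526 to 697 CPM against 294 to 368 CPM. Neither list overlapped, and each had all its genes detected. Whether the precursor genes, among them Pdgfra and Cspg4, mark precursors alone in Vascular nuclei was not examined. Mural genes (12) ranged from 3806 to 4764 CPM against 2667 to 3858 CPM, and neuron genes (7) from 1078 to 2561 CPM against 830 to 1899 CPM, both with overlap. Fibroblast genes led in 53.7%, 48.6% and 52.7% of the Vascular nuclei of the 3 OTV:Malat1 animals, against 53.8%, 61.5%, 55.7% and 55.6% in the 4 saline animals. The nearest values, 44 of 82 nuclei in OTV:Malat1 replicate 1 and 64 of 119 in saline replicate 1, lay closer than 1 nucleus is worth. With called doublets left out these were 42 of 75 and 61 of 114, and the groups overlapped. The other lists overlapped between these groups: endothelial genes ranged from 2438 to 5831 CPM against 1695 to 7133 CPM in saline, astrocyte genes from 903 to 1228 CPM against 650 to 1315 CPM and ependymal and choroid genes from 52.6 to 120 CPM against 94.4 to 278 CPM. Microglial genes ranged from 84.5 to 129 CPM against 52.5 to 99.2 CPM, and perivascular macrophage genes reached at most 18.4 CPM against 20.98 CPM; Cd163 of the latter and the ependymal gene Ccdc153 had no UMI in either group. Of the 9 genes 7 had a log2 change below 0 in OTV:Malat1 against saline, and Ranbp3l (0.48) and Slc6a13 (0.11) did not; the part of these lists and shares in the values was not tested. OTV:Malat1 replicate 2 carried part of the OTV:Malat1 values: without it the log2 change against saline was -1.06 (unadjusted p = 0.085) for Adamtsl1 and -1.10 (unadjusted p = 0.138) for Igfbp5. Against anti-TfR:Malat1 it was then -0.60 (unadjusted p = 0.223) for Cdh11 and -0.56 (unadjusted p = 0.304) for Slc47a1. In that animal none of the 8 Slc47a1 nuclei of cluster 14 was labelled Vascular cells, while in the other 16 animals 1 to 10 were. Of the 30 other fibroblast genes 18 passed the filter, none was called in any comparison, and their median changes were 0.07, -0.05, -0.23 and -0.05.

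The fit was repeated on the fibroblast-led nuclei alone. Of 1768 genes tested, 9 were among the 10, and edgeR's adjusted test and DESeq2 called 0 of them in each comparison. EdgeR called 0% of all genes in Malat1 ASO and in anti-TfR:Malat1 against saline and 0.0566% in both comparisons of OTV:Malat1, and DESeq2 called 0.17% in OTV:Malat1 against saline and 0.0566% against anti-TfR:Malat1. At an unadjusted p under 0.05 the counts were 0, 0, 3 and 1 of the 9, beside 3.51%, 2.55%, 6.96% and 6.5% of all genes. Adamtsl1 had the lowest p, from 6 UMIs in OTV:Malat1 (2, 1 and 3 in its animals) beside 80 in saline (9 to 28), with a log2 change of -2.82 (SE 0.71, unadjusted p = 0.000547, adjusted p = 0.161) in OTV:Malat1 against saline and -2.35 (SE 0.72, adjusted p = 0.343) against anti-TfR:Malat1. Next came Igfbp5 at -1.72 (SE 0.65) and Cdh11 at -0.99 (SE 0.49) in the same comparisons. For Malat1 ASO against saline the values were 0.85 (SE 0.45) for Igfbp5 and 0.58 (SE 0.45) for Slc47a1, and for anti-TfR:Malat1 0.51 (SE 0.26) for Ranbp3l and -0.71 (SE 0.46) for Igfbp5.

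Without the filter on low counts 3 of the 10 genes crossed the threshold in at least 1 comparison with OTV:Malat1. In Vascular nuclei 2 of the 10, Igfbp5 (log2 change -1.70, edgeR adjusted p = 0.0322) and Slc47a1 (-1.56, adjusted p = 0.0334), were then called in OTV:Malat1 against saline, beside 0.102% of 18668 genes. In fibroblast-led nuclei the same setting called Adamtsl1 and Igfbp5 against saline, beside 0.12% of all genes, and Adamtsl1 against anti-TfR:Malat1, beside 0.0803%. These are fits over many genes with few UMIs.

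Over all nuclei, where all 10 genes were tested among 21375, no gene of the list was called either. EdgeR's adjusted test called 0 of the 10 in each of the 4 comparisons, beside 0% of all genes, DESeq2 called 0 of the 10 beside at most 0.00468% of all genes, and 0 of the 10 had an unadjusted p under 0.05, beside 0.604%, 1.21%, 1.11% and 1.61% of all genes. In OTV:Malat1 against saline the lowest p belonged to Col1a2 (log2 change -0.52, SE 0.26, unadjusted p = 0.0591) and Col1a1 (0.31, SE 0.32). Over all nuclei Col1a2 was at 0.786 to 0.885 CPM in the 3 animals of deposited batch 1, none of them OTV:Malat1, and at 0.393 to 0.657 CPM in the other 14; with the batch as a block its log2 change was -0.36 (unadjusted p = 0.103). The log2 change was -0.04 (SE 0.10) for Adamtsl1 and 0.08 (SE 0.14) for Igfbp5, beside -1.61 and -1.59 in Vascular nuclei; the difference between the sets was not tested. In Malat1 ASO against saline the values were 0.63 (SE 0.44) for Slc47a1 and 0.18 (SE 0.13) for Igfbp5, in anti-TfR:Malat1 against saline 0.14 (SE 0.09) for Cdh11 and 0.59 (SE 0.45) for Dcn. Between the 2 conjugates the values were -0.20 (SE 0.10) for Cdh11, or -0.08 without OTV:Malat1 replicate 2, and 0.54 (SE 0.30) for Col1a1.

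Sums within single other labels were fitted after the levels by label had been seen, since of the 10 genes only Slc6a13 had most of its UMIs in Vascular nuclei. Neurons held 88.6% of the UMIs of Bnc2 and 82.8% of those of Dcn, beside 8.03% and 7.47% in Vascular nuclei. EdgeR's adjusted test, the same test with the batch as a block, and DESeq2 called 0 of the genes that passed the filter, which were 4 in astrocytes, 3 in microglia, 6 in oligodendrocytes and all 10 in neurons. EdgeR called 0.0117% of all genes in astrocytes in both comparisons of OTV:Malat1. Against saline, OTV:Malat1 gave 0.011% in microglia and 0.0208% in oligodendrocytes, and against anti-TfR:Malat1 0.00694% in oligodendrocytes, with 0% elsewhere. At an unadjusted p under 0.05 the counts in astrocytes were 1, 2, 0 and 0 of 4 in the 4 comparisons in the order used above, beside 2.16%, 3.16%, 4.04% and 4.07% of all genes. In oligodendrocytes they were 0, 1, 0 and 1 of 6, beside 1.03%, 1.83%, 2.59% and 2.94%, and in neurons 0, 0, 0 and 2 of 10, beside 0.627%, 1.18%, 1.13% and 2.12%. In microglia all 4 counts were 0 of 3, beside 2.24%, 2.91%, 4.03% and 3.6%.

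**Figure D5:**
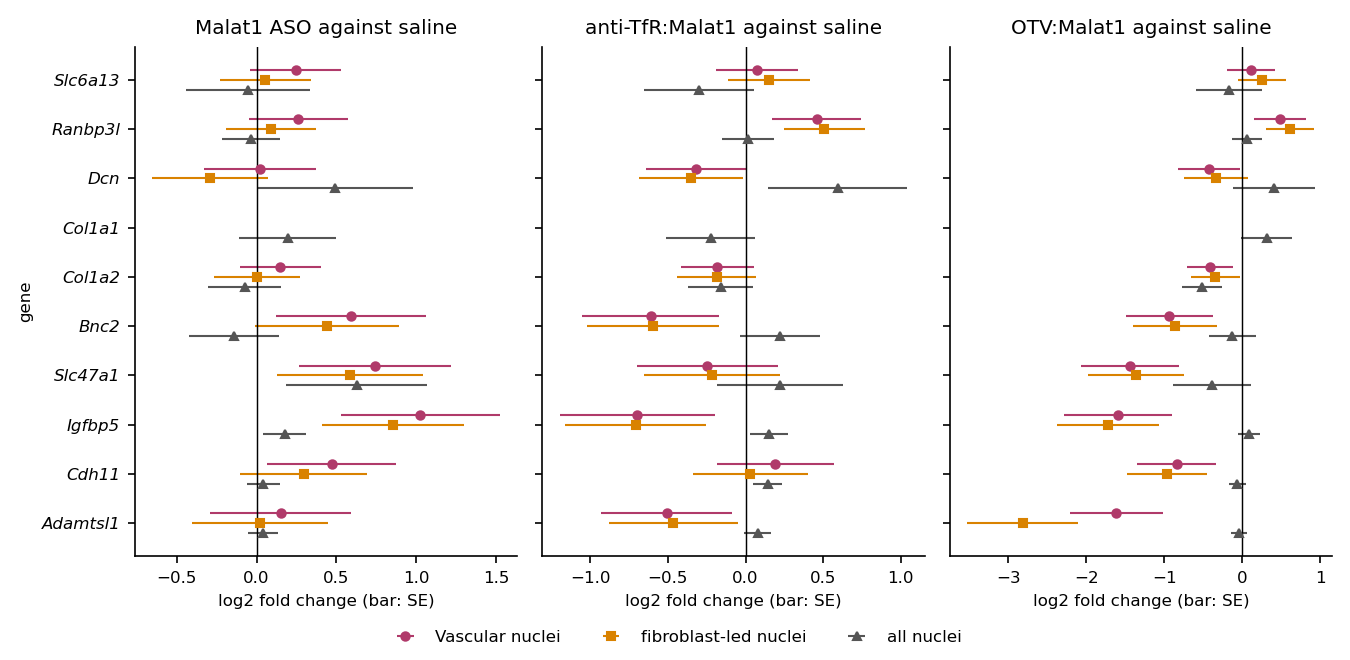
Fitted log2 fold change of each gene (horizontal axis, bar: SE) in each treated group against saline, in Vascular nuclei (circles), fibroblast-led nuclei (squares) and all nuclei (triangles). No change passed the adjusted threshold; the lowest value is that of Adamtsl1 in OTV:Malat1 in fibroblast-led nuclei, -2.82, beside -1.61 in Vascular nuclei and -0.04 in all nuclei.

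The share of an animal's nuclei under the Vascular label bears on the sums over all nuclei, in which fewer cells of a type and less RNA per cell cannot be told apart. It was 0.535% ± 0.177 (SD, n = 4) in saline, 0.424% ± 0.109 (n = 4) in Malat1 ASO, 0.405% ± 0.181 (n = 6) in anti-TfR:Malat1 and 0.399% ± 0.0704 (n = 3) in OTV:Malat1. Exact two-sided permutation tests gave p = 0.343, 0.310 and 0.286 against saline and 0.917 for OTV:Malat1 against anti-TfR:Malat1, with 0.457 as the adjusted value of the first 3. The deposited batch moved with this share: the animals of batch 1 had 0.786%, 0.570% and 0.730%, and batch 1 held no OTV:Malat1 animal. With animals permuted within batches the differences were -0.112 percentage points (p = 0.125), -0.108 (p = 0.0556) and -0.0531 (p = 0.75) against saline and 0.0722 (p = 0.5) between the 2 conjugates, all by exact permutation, with adjusted p = 0.25, 0.222, 0.75 and 0.667. The share was below saline in 4 of 4 batches in Malat1 ASO, in 4 of 4 in anti-TfR:Malat1 and in 2 of 3 in OTV:Malat1. For Malat1 ASO and OTV:Malat1 against saline the smallest p this permutation can give is 0.125 and 0.25, so neither could pass the threshold. After adjustment over the 4 comparisons the others could not pass it either.

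Counts of the 2 kinds of nuclei in cluster 14 overlapped between groups. Slc47a1 nuclei made up 8.91 ± 4.92 per 10000 nuclei in saline (SD, n = 4), 12.2 ± 4.19 in Malat1 ASO (n = 4), 10.4 ± 3.99 in anti-TfR:Malat1 (n = 6) and 7.36 ± 2.72 in OTV:Malat1 (n = 3). Slc6a13 nuclei made up 16.7 ± 11, 14.6 ± 8.69, 14.7 ± 7.83 and 11.2 ± 1.89 per 10000 in the same order. The ranges of all groups overlapped for both kinds. Of the Slc47a1 nuclei, 23, 30, 25 and 9 were labelled Vascular cells in the same order. They averaged 7.36% ± 3.74, 10.8% ± 4.64, 5.58% ± 3.39 and 4.26% ± 3.80 of an animal's Vascular nuclei, with overlap between all groups. The levels of Slc47a1 in Vascular nuclei rest on these few nuclei. The deposited batch moved with the Slc6a13 nuclei: the 3 animals of batch 1, which holds no OTV:Malat1 animal, had 26.5 to 33.0 per 10000 and the other 14 animals 6.22 to 16.8. Without batch 1, a setting added after the values had been seen, the means were 11.2 ± 2.09 (SD, n = 3) in saline, 10.6 ± 4.26 (n = 3) in Malat1 ASO, 11.8 ± 3.2 (n = 5) in anti-TfR:Malat1 and 11.2 ± 1.89 (n = 3) in OTV:Malat1.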

How the data were processed

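Counts per gene and nucleus, the deposited unit, were whole UMI counts per the file headers; for every one of 284074 nuclei they summed to the deposited total. Per the submitters' processing notes, Cell Ranger 6.0.1, Seurat 4 and build mm10 were used; their roles, the doublet caller, the labelling method and what the batch stands for are not given in the sources used here. Nuclei were released by douncing in Nuclei EZ Prep and sorted by DAPI, per the labels' protocols. The authors deposited the cell type labels, clusters, batches and doublet calls; called doublets (16.8% of nuclei, 5.71% of Vascular nuclei) were kept.

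UMIs were summed per animal over Vascular nuclei, fibroblast-led nuclei and all nuclei. All 17 animals were fitted together by edgeR 4.0.16 (filterByExpr, TMM, glmQLFit, glmQLFTest) in R 4.3.3, two-sided, with Benjamini-Hochberg adjustment over all genes tested and a threshold of 0.05. DESeq2 1.42.0 was an alternative. The fit was also run on simulated counts with known changes, whose outcome is not given here. Shares of nuclei were compared by exact permutation of animals. Thinned shares are the expected share of nuclei with a UMI at 500 or 1000 UMIs (scipy 1.17.1). A count of 0 was given the limit of 3 UMIs. Such limits cover counting error only and take UMIs as independent. They are too low for genes with several UMIs in a nucleus.

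The 10 genes, the other lists, the tests and the naming rule were chosen with earlier results of these data known. All 10 are named with levels; per comparison changes are given for genes past the threshold, otherwise for the 2 of lowest unadjusted p; of the other fibroblast genes the 4 highest in Vascular nuclei are named, and the 5 genes most like the summed 10 over label and cluster groups. The labels give each library a sample number and do not say that each is a separate animal, so p-values measure the spread between these samples. Promoter sequence is RefSeq's, build GRCm38.p6.

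Replicate numbers in the labels equal the deposited batch number for saline and Malat1 ASO only. The deviations of same-numbered samples from their group means correlated at -0.124 to 0.256 (Vascular nuclei) and -0.0495 to 0.631 (all nuclei) for those groups.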

Additional observations from a re-analysis of the deposited data

Results flagged for a closer look

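In 5 of 72 groups of values tested, 1 animal lay far from the others of its group. Chance alone flags some such groups, at a rate of 0.05 per group. The OTV:Malat1 group, with 3 animals, was too small for this test, so none of its animals could be flagged. Saline replicate 1 was high for Slc6a13 over all nuclei, at 1.74 CPM against 0.717 to 0.860 CPM in the other saline animals, and for Ranbp3l, at 6.81 CPM against 4.08 to 4.31 CPM. The same animal had 33.0 Slc6a13 nuclei of cluster 14 per 10000 nuclei against 8.79 to 12.5. This animal is in deposited batch 1, and the other 2 animals of that batch, Malat1 ASO replicate 1 and anti-TfR:Malat1 replicate 1, were also above all 14 animals of the other batches in these 3 values. Over the 3 animals of batch 1 they were 1.47 to 1.74 CPM for Slc6a13, 6.02 to 6.81 CPM for Ranbp3l and 26.5 to 33.0 nuclei, against at most 1.23 CPM, 5.63 CPM and 16.8 nuclei elsewhere. Saline replicate 3 was low for Adamtsl1 over all nuclei, at 103.0 CPM against 128 to 132 CPM. Fibroblast genes led in 66.7% of the Vascular nuclei of anti-TfR:Malat1 replicate 5, against 55.6% to 59.5% in the other animals of that group.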

How the results depend on the processing

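Of 24 named changes, 435 alternative values were computed: 430 kept the sign and made no call, 4 made a call, and 1 had the other sign (Col1a1 over all nuclei in OTV:Malat1 against saline, a log2 change of -0.014 without OTV:Malat1 replicate 1 and up to 0.59 with another animal left out). The number of the 10 genes called was 0 in 215 of 218 alternatives of the fits. Without the filter on low counts it was 2 in Vascular nuclei and 2 in fibroblast-led nuclei for OTV:Malat1 against saline, and 1 in fibroblast-led nuclei for OTV:Malat1 against anti-TfR:Malat1; the cause was not tested. With the replicate number as a block, 0 of the 10 were called in every set and comparison, so the block changed no such call. Fits within nuclei labelled astrocytes, microglia, oligodendrocytes or neurons, chosen after seeing the data, also called 0. None of 46 alternative shares of Vascular nuclei passed the threshold. Within batches none of the 4 comparisons could have. By exact permutation the smallest possible unadjusted p was 0.125, 0.25 and 0.0556 in 3 of them. That of anti-TfR:Malat1 against saline is also too large once adjusted over the 4 comparisons. The difference between OTV:Malat1 and anti-TfR:Malat1 in that share changed sign within batches (0.0722 percentage points) and ranged from -0.0435 to 0.0581 when single animals were left out, being above 0 without anti-TfR:Malat1 replicate 1 (0.0581) or 6 (0.00824) or OTV:Malat1 replicate 3 (0.0267). Depth limits all values in Vascular nuclei, which held at most 171058 UMIs per animal.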

Other observations

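Igfbp5 in astrocytes, chosen after its values were seen, was lower in saline than in every treated animal. It stood at 36.8 to 45.3 CPM in the 4 saline animals, 52.2 to 78.8 CPM in Malat1 ASO, 57.7 to 84.7 CPM in anti-TfR:Malat1 and 52.8 to 74.7 CPM in OTV:Malat1. The groups share the saline animals, and the share of all genes separated in this way was not counted. In edgeR's fit of astrocyte sums the log2 change was 0.66 (SE 0.20, unadjusted p = 0.002, adjusted p = 1) in Malat1 ASO against saline and 0.62 (unadjusted p = 0.002, adjusted p = 1) in anti-TfR:Malat1. In OTV:Malat1 it was 0.41 (SE 0.21, unadjusted p = 0.0694, adjusted p = 0.999). None passed the threshold. Cdh11 in neurons averaged 252, 255, 269 and 249 CPM, and Adamtsl1 in oligodendrocytes 461, 461, 470 and 483 CPM, in saline, Malat1 ASO, anti-TfR:Malat1 and OTV:Malat1.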
